A study of Mus musculus with 18 samples.

Results

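Colony-stimulating factors are the secreted proteins that keep macrophages and granulocytes alive and growing, and their receptors sit on the surface of the myeloid cells that respond to them. The 6 genes described here are the receptor genes Csf1r, Csf2ra, Csf2rb, Csf2rb2 and Csf3r together with Csf1, the gene of 1 of the ligands of Csf1r. The members are fixed by symbol and not by a threshold on their values, although they were chosen with earlier results of these data known, and all 6 of 6 are among the 13043 genes of the deposited table. All 6 passed the filter on low counts, which left 10597 genes tested.

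RNA was measured by bulk MARS-seq, a method that counts the 3′ ends of transcripts by unique molecular identifiers (UMIs), in 18 libraries of sorted mouse brain macrophages. Recipients were wild-type C57BL6 mice that had been lethally irradiated, and the transplanted marrow carried Ms4a3-Cre, R26-TdTomato and Cx3cr1-gfp. Ms4a3-Cre is active in granulocyte-monocyte progenitors, so that cells descended from them keep TdTomato, while Cx3cr1-gfp marks donor macrophages with GFP. Cells were sorted 32 weeks after transplantation, up to 100000 per library. The groups were monocyte-derived leptomeningeal macrophages (mo LM, GFP+ and TdTomato+, 4 libraries), haematopoietic stem cell-derived leptomeningeal macrophages (HSC LM, GFP+ alone, 2 libraries), monocyte-derived microglia (mo MG, 4 libraries), HSC-derived microglia (HSC MG, 4 libraries) and host microglia (host MG, no colour, 4 libraries). The age and sex of the mice are not given in the labels, and host leptomeningeal macrophages were not analysed here. Host cells differed from donor cells in origin, in having been irradiated in place and in lacking the Cx3cr1-gfp allele, and these cannot be told apart. Cells of the leptomeninges were rinsed from intact brains after a first digestion and microglia came from the further digested tissue, so that compartment and preparation cannot be told apart either. Nothing in the labels says that replicates are separate mice, so p-values measure only the spread between these libraries.

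Csf1r is the receptor tyrosine kinase for CSF1 and IL-34, and microglia depend on it for survival. The receptor for GM-CSF joins a ligand-binding alpha chain, Csf2ra, to a beta chain, Csf2rb, that is shared with the receptors for IL-3 and IL-5. Mice have an additional beta chain, Csf2rb2, which serves IL-3 alone. Csf3r is the receptor for G-CSF and is best known on neutrophils and their precursors. The transcription factors PU.1 and C/EBP are known to act on several of these genes.

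Promoters are shown because Csf1, Csf2rb2 and Csf3r were lower in donor than in host microglia while Csf2ra was higher. RefSeq starts on GRCm38.p6 were matched for 4 of the 6 genes. Each line holds the 250 bases before and the 50 bases from the first transcribed base, 5′ to 3′ on the strand of the gene, for Csf1 (chr3:107760420-107760719, minus strand), Csf2ra (chr19:61228369-61228668, minus strand), Csf2rb2 (chr15:78305672-78305971, minus strand) and Csf3r (chr4:126024409-126024708, plus strand). Capitals mark the core letters of the PU.1 motif, GAGGAA, or TTCCTC where it lies on the other strand.
Csf1: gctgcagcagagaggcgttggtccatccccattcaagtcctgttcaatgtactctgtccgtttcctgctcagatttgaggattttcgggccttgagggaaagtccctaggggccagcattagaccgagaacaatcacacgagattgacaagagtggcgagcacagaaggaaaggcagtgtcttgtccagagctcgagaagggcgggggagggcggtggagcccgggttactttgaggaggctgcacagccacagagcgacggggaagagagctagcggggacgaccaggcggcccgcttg
Csf2ra: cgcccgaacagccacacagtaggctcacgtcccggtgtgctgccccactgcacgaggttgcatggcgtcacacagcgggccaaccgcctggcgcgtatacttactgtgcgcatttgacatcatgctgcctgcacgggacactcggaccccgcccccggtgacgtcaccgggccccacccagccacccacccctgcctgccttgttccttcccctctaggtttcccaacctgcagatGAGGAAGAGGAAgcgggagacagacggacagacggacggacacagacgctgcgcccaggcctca
Csf2rb2: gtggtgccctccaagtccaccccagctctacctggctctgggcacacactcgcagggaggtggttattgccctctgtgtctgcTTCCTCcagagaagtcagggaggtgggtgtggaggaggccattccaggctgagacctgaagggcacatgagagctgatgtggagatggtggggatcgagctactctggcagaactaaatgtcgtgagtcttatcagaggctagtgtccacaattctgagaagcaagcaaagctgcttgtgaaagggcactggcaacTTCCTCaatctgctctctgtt
Csf3r: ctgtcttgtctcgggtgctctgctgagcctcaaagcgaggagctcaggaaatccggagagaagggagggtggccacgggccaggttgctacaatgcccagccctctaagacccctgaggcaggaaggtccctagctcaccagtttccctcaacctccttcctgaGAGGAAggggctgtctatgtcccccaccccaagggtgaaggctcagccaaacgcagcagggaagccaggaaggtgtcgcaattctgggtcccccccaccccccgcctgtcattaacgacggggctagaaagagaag
The Csf2ra promoter held 2 PU.1 cores in tandem, at -14 and -8 from the first transcribed base of RefSeq counted as 0. For Csf2ra and Csf3r that base lies inside the GENCODE gene. Csf2rb2 held 2, at -167 and 29, Csf3r held 1, at -86, and Csf1 held 0. Of 32851 promoters of the same length, 28.3% held at least 1 such core on either strand. The C/EBP letters TTGCNNAA, found in 10.8% of all promoters, and the AP-1 letters TGANTCA, found in 7.81%, occurred in none of these 4 windows on either strand. A match of letters is a description of the window only.

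Library totals ran from 154727 to 2440234 UMIs, and a count of 3 in 1 library corresponded to between 1.053 and 23.11 CPM (counts scaled to the library's size by TMM). HSC MG replicates 3 and 4 and HSC LM replicate 2, with 264795, 317872 and 154727 UMIs, were the shallowest. The labelled cell types were checked on their markers. P2ry12, Tmem119 and Sall1, which mark microglia, averaged 1575, 1058 and 31.36 CPM in mo MG, 1245, 896.6 and 19.8 CPM in HSC MG, and 4688, 2607 and 325.7 CPM in host MG. Mrc1 and Pf4, which mark macrophages at the brain's borders, averaged 1191 and 1957 CPM in mo LM and 1791 and 3428 CPM in HSC LM. Donor microglia also held these border markers, with Mrc1 at 597 CPM in mo MG, 606.3 CPM in HSC MG and 26.61 CPM in host MG. The border markers Ms4a7 and Clec12a did not set the compartments apart in this way. Ms4a7 averaged 479.8 CPM in mo LM and 590.6 CPM in HSC LM, against 780.2 CPM in mo MG and 884.7 CPM in HSC MG. Clec12a averaged 369.6 and 379.6 CPM in mo LM and HSC LM, against 345 and 458.8 CPM in mo MG and HSC MG. Of 10 tested border markers, 6 were called higher and 1, Ms4a7, lower in mo LM against mo MG. Summed markers of choroid plexus epithelium, all 6 of 6 in the table and led by Ttr, reached 6.31 to 161 CPM in mo MG and 13.7 to 482 CPM in HSC MG, against 2080 to 3530 CPM in host MG, and all 4 tested members were called lower in both donor groups. Folr1, Kl and Kcnj13 of this list were at 0 in mo MG, and Kl, Clic6 and Kcnj13 in HSC MG. Their part in the differences from host microglia was not tested. In bulk RNA, fewer cells of a type and less RNA per cell cannot be told apart.

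A gene was called where edgeR's quasi-likelihood test, adjusted by Benjamini-Hochberg over all 10597 genes, gave a p under 0.05. In mo MG against host MG, 1 of the 6 genes was higher (Csf2ra) and 3 were lower (Csf2rb2, Csf3r and Csf1), where 30.2% of all tested genes were called, 15.1% in each direction. In HSC MG against host MG the counts were again 1 higher and 3 lower, where 29.4% of genes were called, 16.3% higher and 13.1% lower. These comparisons share the host libraries. Between mo MG and HSC MG 0 of the 6 genes were called by edgeR, 2 had an unadjusted p under 0.05, DESeq2 called 0, and 1.89% of all genes were called, 0.123% higher and 1.76% lower. Between mo LM and HSC LM edgeR called 0, 0 had an unadjusted p under 0.05, DESeq2 called 0, and 0.302% of genes were called, 0.16% higher and 0.142% lower. Of the 6, 1 was higher (Csf1) and 1 lower (Csf3r) in mo LM against mo MG, where 35.3% of genes were called, 19% higher and 16.3% lower. In HSC LM against HSC MG edgeR called 0, 2 had an unadjusted p under 0.05, DESeq2 called 1, and 9.72% of genes were called, 5.75% higher and 3.97% lower. The difference between both compartment comparisons was called by edgeR for 0 of the 6, with 1 unadjusted p under 0.05 and 0 called by DESeq2, where 0.0566% of genes were called, all of them with a positive difference. Over all 10597 genes, an unadjusted p under 0.05 was found for 1639 between mo MG and HSC MG and 1159 between mo LM and HSC LM. It was found for 2336 in HSC LM against HSC MG and 846 in the difference between both compartment comparisons. DESeq2 called 552, 70, 957 and 49 genes in these 4 comparisons, in this order. The median log2 fold change of the 6 genes was -0.47 in mo MG and -0.52 in HSC MG against host MG, beside 0.01 and 0.00 over all genes. It was -0.21 in mo LM against mo MG and -0.24 in HSC LM against HSC MG, beside -0.04 and -0.06.

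**Figure D1:**
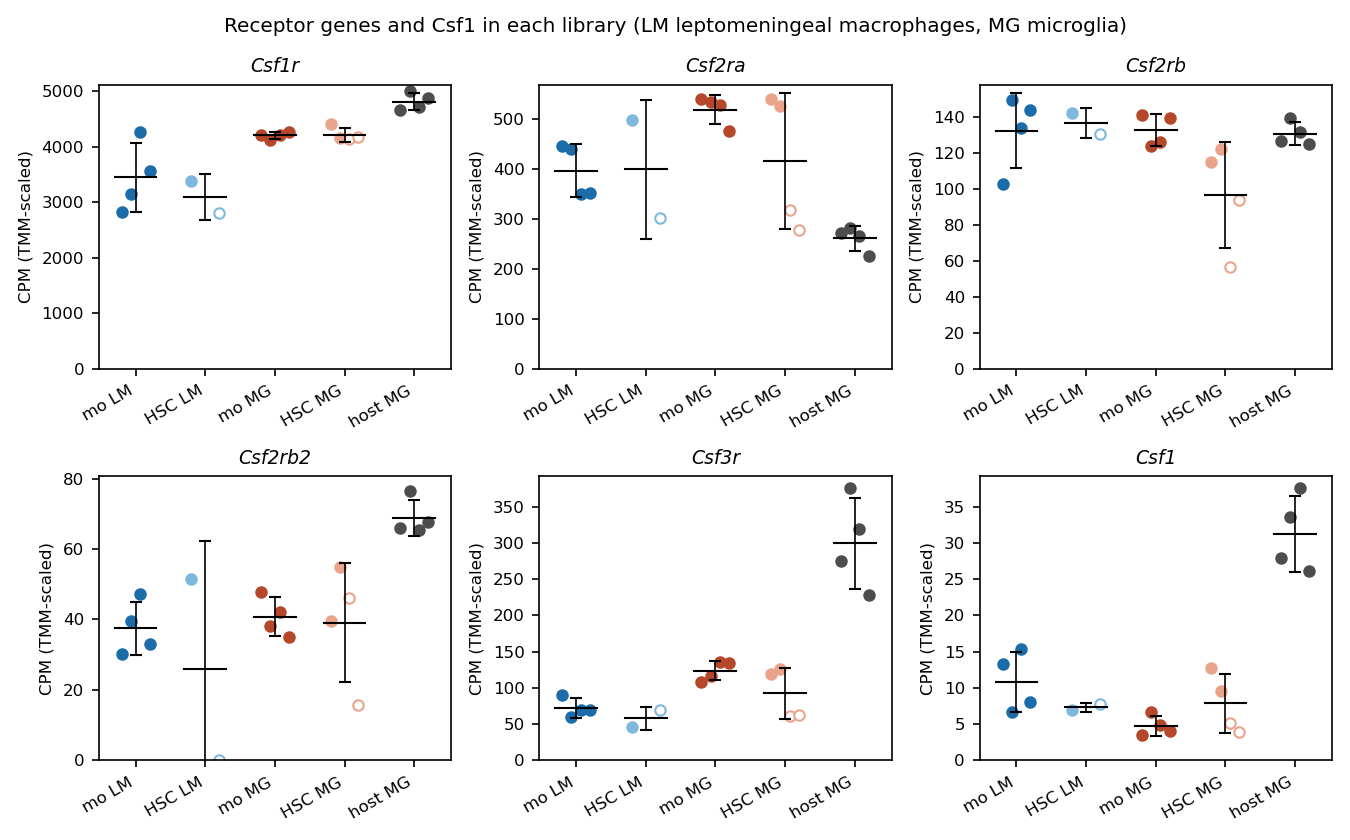
Level of each gene (vertical axis, TMM-scaled CPM, starting at 0) in the 18 libraries by group. Points are libraries, open points the 3 shallowest, bars the mean and SD (cut off at 0 for Csf2rb2 in HSC LM). Host microglia stood above every donor library for Csf1r, Csf2rb2, Csf3r and Csf1, and for Csf2ra they lay below every donor library but HSC MG replicate 4, at 277.9 CPM.

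**Figure D2:**
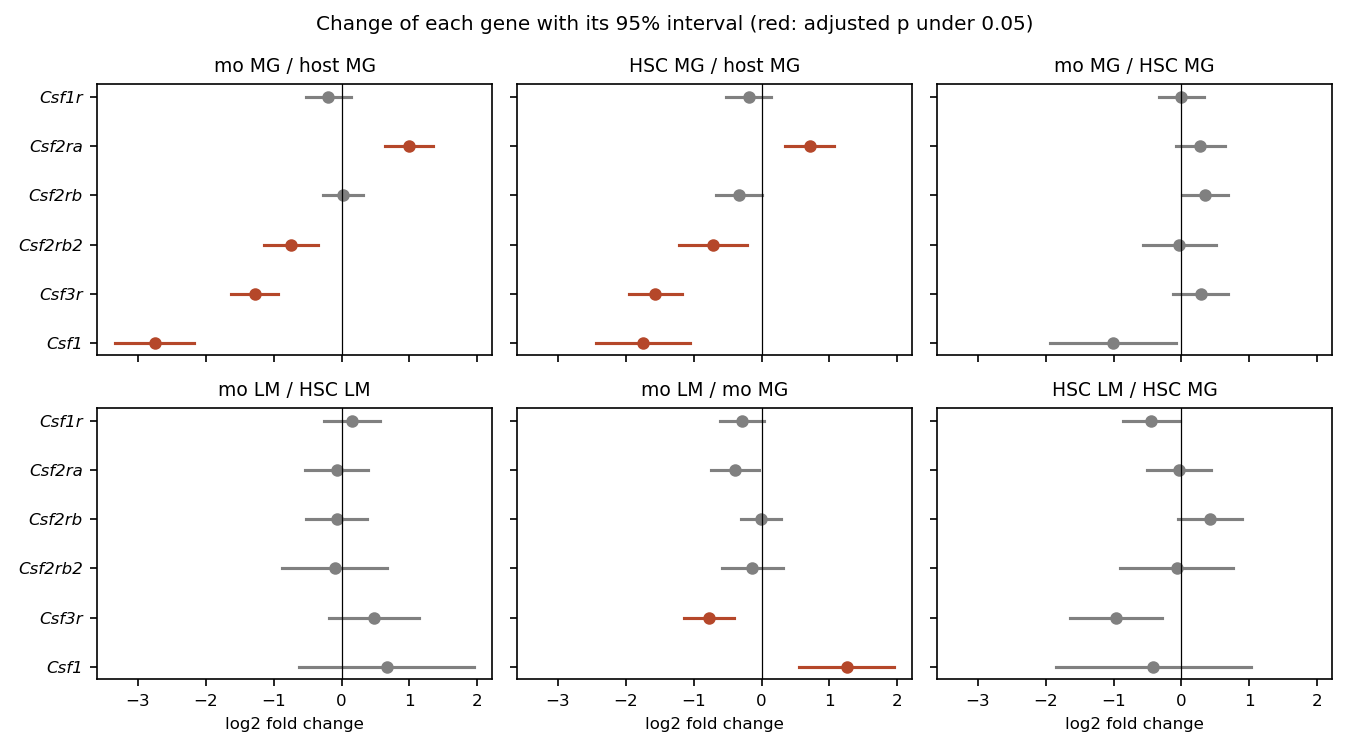
Log2 fold change (horizontal axis) of each gene with its 95% interval in 6 comparisons, the first-named group over the second. Red points had an adjusted p under 0.05. Csf2ra lay to the right of 0 and Csf2rb2, Csf3r and Csf1 to the left in both comparisons with host microglia, and Csf3r and Csf1 were called in opposite directions in mo LM over mo MG.

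Csf1, the ligand, was the gene with the widest range between groups, its highest group mean being 6.6 times its lowest. It had 6, 8, 7 and 5 UMIs in the mo MG libraries and 9, 7, 1 and 1 in the HSC MG libraries, against 39, 74, 107 and 39 in the host MG libraries. As levels these were 3.458, 6.621, 4.904 and 3.99 CPM in mo MG and 12.75, 9.62, 5.124 and 3.914 CPM in HSC MG, against 27.92, 33.65, 37.57 and 26.12 CPM in host MG. Every host library was above every donor library. The log2 fold change was -2.75 (SE 0.29, adjusted p = 1.35e-09, edgeR) in mo MG, 6.72 times lower than in host MG, and -1.74 (SE 0.34, adjusted p = 0.00013) in HSC MG, 3.35 times lower. Without the 3 shallowest libraries, the HSC MG value was -1.51 (adjusted p = 0.000963).

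In the leptomeninges Csf1 had 19, 6, 24 and 12 UMIs in mo LM, or 13.35, 6.589, 15.3 and 8.076 CPM, and 4 and 1 UMIs in HSC LM, or 6.871 and 7.702 CPM. Csf1 was higher in mo LM than in mo MG by 1.25 on the log2 scale (SE 0.34, adjusted p = 0.0043), although the lowest mo LM library, at 6.589 CPM, lay just under the highest mo MG library, at 6.621 CPM. The corresponding change in HSC LM against HSC MG was -0.42 (95% interval -1.85 to 1.02, adjusted p = 0.803), and the difference between both changes was 1.67 (95% interval 0.12 to 3.22, adjusted p = 0.587). At 1 to 9 UMIs per library the HSC groups carried little depth for this gene. Summed markers of T and NK cells, led by Ccl5, ran from 951 to 1560 CPM in mo LM against 231 to 293 CPM in mo MG. Ccl5 alone averaged 677 CPM in mo LM and 163 CPM in mo MG. All 9 tested members of this list were called higher, and their part in the Csf1 difference was not tested. Csf1 averaged 10.83 ± 4.16 CPM in mo LM, 7.287 ± 0.5879 CPM in HSC LM, 4.744 ± 1.387 CPM in mo MG, 7.852 ± 4.086 CPM in HSC MG and 31.31 ± 5.262 CPM in host MG (SD, n = 4, 2, 4, 4 and 4).

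Csf2, the gene of GM-CSF, had 1, 3, 3 and 8 UMIs in the mo LM libraries and 0 in both HSC LM libraries, which at their depth allow up to 5.153 and 23.11 CPM. It had 1 UMI in all mo MG libraries together, 0 in HSC MG and 1 in host MG, and did not pass the filter, so it was not tested. The ligand genes Il34, Csf3, Il3 and Il5 were not analysed here.

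Csf1r RNA was present at 2804 CPM or more in every library, and edgeR called it in none of the 7 comparisons. It reached 4214, 4114, 4214 and 4271 CPM in mo MG and 4398, 4149, 4135 and 4164 CPM in HSC MG, against 4657, 5002, 4707 and 4868 CPM in host MG. All 8 donor microglia libraries were below all 4 host libraries, yet the change was small and was not called. The log2 fold change was -0.19 in mo MG (95% interval -0.52 to 0.13, adjusted p = 0.394, edgeR) and -0.19 in HSC MG (95% interval -0.52 to 0.14, adjusted p = 0.413). Between mo MG and HSC MG it was 0.00 (95% interval -0.33 to 0.33, adjusted p = 0.999). These intervals bound a difference, and the p-values do not show that the levels were equal.

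Leptomeningeal libraries had less Csf1r and spread more, with 2822, 3139, 4259 and 3558 CPM in mo LM and 3384 and 2804 CPM in HSC LM. Only mo LM replicate 3 reached into the range of the microglia. Neither change was called: the log2 fold change was -0.29 in mo LM against mo MG (SE 0.16, adjusted p = 0.173) and -0.44 in HSC LM against HSC MG (SE 0.20, adjusted p = 0.186). DESeq2 called both, with adjusted p = 0.0144 and 0.0179, and edgeR without the 3 shallowest libraries called the mo LM value, -0.29, with adjusted p = 0.0343. Csf1r lies at chr18:61100598-61132149 on the plus strand (GENCODE vM21, GRCm38), where the 3′ end overlaps Hmgxb3 on the other strand. Hmgxb3 averaged 14.68 to 23.58 CPM over the groups, and whether reads were counted by strand is not given in the sources used here.

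Csf2ra, the alpha chain of the GM-CSF receptor, was the receptor gene that was higher in donor than in host microglia. It stood at 538.4, 532.2, 526.2 and 474.1 CPM in mo MG and at 539.8, 525, 317.7 and 277.9 CPM in HSC MG, against 271.3, 281.5, 264.7 and 225 CPM in host MG. All mo MG libraries were above all host libraries, while the lowest HSC MG library, replicate 4, lay inside the host range. The increase over host MG was 1.98-fold in mo MG (log2 fold change 0.99, SE 0.17, adjusted p = 2.52e-05, edgeR) and 1.64-fold in HSC MG (0.71, SE 0.18, adjusted p = 0.00239). Summed monocyte markers, 9 of 10 in the table and led by Ccr2, ran from 78.4 to 121 CPM in mo MG and 125 to 169 CPM in HSC MG, against 12.3 to 17.9 CPM in host MG, and their part in this difference was not tested. Without the 3 shallowest libraries the HSC MG change was 1.03 (adjusted p = 4.82e-08), and the difference between mo MG and HSC MG was -0.03, in place of 0.28 (adjusted p = 0.469) with them. Scaled by library totals alone, the HSC MG change was 0.42 and was not called (adjusted p = 0.162).

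In the leptomeninges Csf2ra reached 444.8, 438.2, 349.4 and 351.3 CPM in mo LM and 496.4 and 300.4 CPM in HSC LM. All 6 of these libraries were above all 4 host MG libraries, a pair of groups for which no test was made. The mo LM libraries lay below all mo MG libraries, with a log2 fold change of -0.39 (SE 0.17, adjusted p = 0.0764), which was not called. The same change was called without the 3 shallowest libraries (-0.40, adjusted p = 0.00197) and with only both groups in the model (-0.38, adjusted p = 0.00936). Csf2ra lies at chr19:61223957-61228429 on the minus strand and overlaps no other annotated gene.

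Csf2rb, the beta chain shared by the receptors for GM-CSF, IL-3 and IL-5, was the most even of the 6 genes, its highest group mean being 1.41 times its lowest. It had 141.2, 124.1, 126.1 and 139.7 CPM in mo MG and 114.8, 122.3, 56.36 and 93.93 CPM in HSC MG, against 126.7, 139.6, 131.7 and 125.2 CPM in host MG. The mo MG and host libraries overlapped, and the log2 fold change was 0.02 (95% interval -0.27 to 0.31, adjusted p = 0.939, edgeR). All HSC MG libraries were below all host libraries, the shallow replicates 3 and 4 most, and the change of -0.33 (95% interval -0.67 to 0.00, adjusted p = 0.133) was not called. Without the 3 shallowest libraries it was -0.14. In mo LM the levels were 102.6, 149.3, 133.9 and 144 CPM and in HSC LM 142.6 and 130.9 CPM. The mo LM libraries overlapped the mo MG libraries, with a log2 fold change of -0.01 (95% interval -0.31 to 0.29, adjusted p = 0.972).

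Csf2rb2, the beta chain that serves IL-3 in mice, was lower in donor than in host microglia. Its levels were 47.84, 38.07, 42.04 and 35.12 CPM in mo MG and 39.67, 54.97, 46.11 and 15.66 CPM in HSC MG, against 65.86, 76.4, 65.3 and 67.64 CPM in host MG. No donor library reached the host range. The log2 fold change was -0.74 (SE 0.20, adjusted p = 0.00394, edgeR) in mo MG and -0.71 (SE 0.25, adjusted p = 0.0284) in HSC MG. The HSC MG call was lost without the 3 shallowest libraries (-0.54, adjusted p = 0.0505) and when host MG replicate 2, HSC MG replicate 1 or HSC MG replicate 4 was left out, with adjusted p up to 0.0987. In mo LM the levels were 30.21, 39.53, 47.18 and 32.98 CPM, and in HSC LM 51.53 CPM and 0 UMIs, where the depth of the empty library allows up to 23.11 CPM. No comparison with a leptomeningeal group was called for Csf2rb2, and the mo LM change against mo MG was -0.13 (95% interval -0.58 to 0.31, adjusted p = 0.677).

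The beta chain genes lie side by side on chromosome 15, Csf2rb at chr15:78325752-78353847 on the plus strand and Csf2rb2 at chr15:78282507-78305721 on the minus strand, 20030 bases apart. Since they are near-identical copies over part of their length, counts could be split between them. Of the 50-base stretches of the longest protein-coding Csf2rb transcript, 18.4% also occur in Csf2rb2. Of the 951 such stretches in its last 1000 bases, the end that a 3′ method reads, 0 are shared. How reads were divided between both genes was not tested. The share of Csf2rb2 among the UMIs of both genes compares them within a library, free of scaling. It was 25.3%, 23.5%, 25% and 20.1% in mo MG and 25.7%, 31.0%, 45.0% and 14.3% in HSC MG, against 34.2%, 35.4%, 33.2% and 35.1% in host MG. The host libraries lay within a narrow band above all mo MG libraries, while the HSC MG libraries spread across it. The mean share was 23.5% ± 2.38 in mo MG and 34.5% ± 0.991 in host MG (SD, n = 4 each), a difference of -11 percentage points. A two-sided exact permutation test gave p = 0.0286, the smallest that 70 splits allow, and 0.171 after Benjamini-Hochberg adjustment over 6 comparisons. In HSC MG, at 29% ± 12.7 (SD, n = 4), the difference from host MG was -5.48 points (exact permutation p = 0.486, adjusted 0.651). In mo LM the share was 22.1% ± 3.17 (SD, n = 4), against 23.5% in mo MG (exact permutation p = 0.543, adjusted 0.651), and in HSC LM it was 26.5% and 0%.

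**Figure D3:**
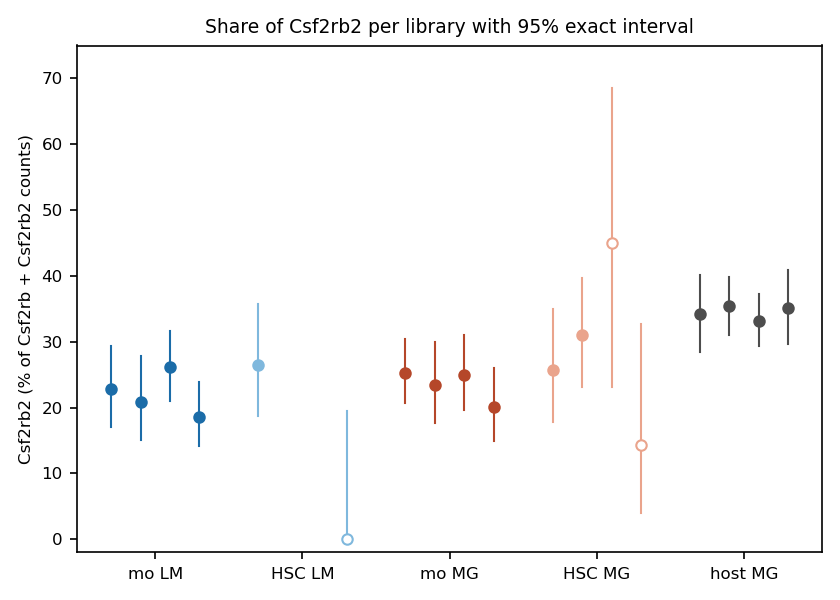
Csf2rb2 as a percentage of the Csf2rb and Csf2rb2 UMIs of each library (vertical axis), by group. Points are libraries, open points the 3 shallowest, and lines the 95% exact (Clopper-Pearson) intervals, which cover counting error only. The 4 host MG libraries lie between 33.2% and 35.4%, above the 4 mo MG libraries at 20.1% to 25.3%.

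The alpha chain that pairs with these beta chains to bind IL-3, Il3ra, was measured as another receptor of the family. It averaged 50.28 ± 10.11 CPM in mo LM and 87.88 ± 4.465 CPM in HSC LM, against 12.16 ± 4.131 CPM in mo MG and 21.66 ± 11.68 CPM in HSC MG (SD, n = 4, 2, 4 and 4). All leptomeningeal libraries, at 39.53 CPM or more, were above all microglia libraries, but only just. The highest microglia library, the shallow HSC MG replicate 4, was at 39.14 CPM on 10 UMIs. The lowest leptomeningeal library, mo LM replicate 2, rests on 36 UMIs. The log2 fold change was 2.09 in mo LM against mo MG (adjusted p = 3.05e-08, edgeR) and 2.19 in HSC LM against HSC MG (adjusted p = 8.59e-05). Summed markers of dendritic cells, 8 of 10 in the table and led by Clec10a, ran from 600 to 746 CPM in mo LM and 478 to 1120 CPM in HSC LM, against 54.8 to 80.6 CPM in mo MG and 47 to 183 CPM in HSC MG, and their part in this difference was not tested. Against host MG, at 6.576 ± 2.429 CPM, Il3ra was higher in HSC MG (1.52, adjusted p = 0.00235), and its change in mo MG was 0.81 (adjusted p = 0.0532). Il5ra was not analysed here.

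Csf3r, the G-CSF receptor, was lower in donor than in host microglia and lower again in mo LM. It had 108.4, 116.7, 135.9 and 134.1 CPM in mo MG and 119, 126.4, 61.49 and 62.62 CPM in HSC MG, against 274.9, 376.1, 319.8 and 227.7 CPM in host MG. All donor microglia libraries were below the lowest host library. The log2 fold change was -1.28 in mo MG, 2.43 times lower (SE 0.17, adjusted p = 1.97e-07, edgeR), and -1.56 in HSC MG, 2.96 times lower (SE 0.19, adjusted p = 7.1e-08). Without the 3 shallowest libraries the HSC MG value was -1.29. Between mo MG and HSC MG the change was 0.28 (95% interval -0.12 to 0.69, adjusted p = 0.524).

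The leptomeningeal levels of Csf3r were 90.64, 59.3, 68.86 and 69.32 CPM in mo LM and 46.38 and 69.32 CPM in HSC LM. All mo LM libraries were below all mo MG libraries, with a log2 fold change of -0.77 (SE 0.18, adjusted p = 0.000968). In HSC LM against HSC MG it was -0.97 (SE 0.34, adjusted p = 0.063), which was not called, and the HSC LM libraries overlapped only the shallow HSC MG libraries. Without the 3 shallowest libraries, 1 of them being an HSC LM library, the value was -1.39 (adjusted p = 0.00447). The difference between both compartment changes was 0.20 (95% interval -0.59 to 0.98, adjusted p = 0.949). Csf3r lies at chr4:126024550-126044440 on the plus strand and overlaps no other annotated gene.

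Since Csf3r is a neutrophil gene as well, neutrophil markers were set beside it, 9 of 12 being in the table. Their summed level was 1280 to 3040 CPM in mo LM, 100 to 280 CPM in HSC LM, 12.7 to 55.1 CPM in mo MG, 0 to 20.5 CPM in HSC MG and 0 to 0.67 CPM in host MG. Of the 9 markers, 5 were at 0 in HSC LM (Mmp8, Camp, Ltf, Ngp and Lcn2), where S100a9 averaged 11.6 CPM. In HSC MG 6 of the 9 were at 0, S100a9 included. In host MG, where Csf3r was highest, 8 of the 9 markers were at 0, S100a8 and S100a9 included, and 1 UMI was counted for all 9 together. Against mo MG, all 8 tested markers were called higher in mo LM, where 19% of all tested genes were called higher, and Csf3r was called lower. In HSC LM against HSC MG 1 of the 8, Mmp9, was called higher, where 5.75% of all tested genes were called higher. All mo MG libraries had more of the markers and less Csf3r than all host MG libraries. The part of neutrophil RNA in the Csf3r levels of any group was not tested.

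**Figure D4:**
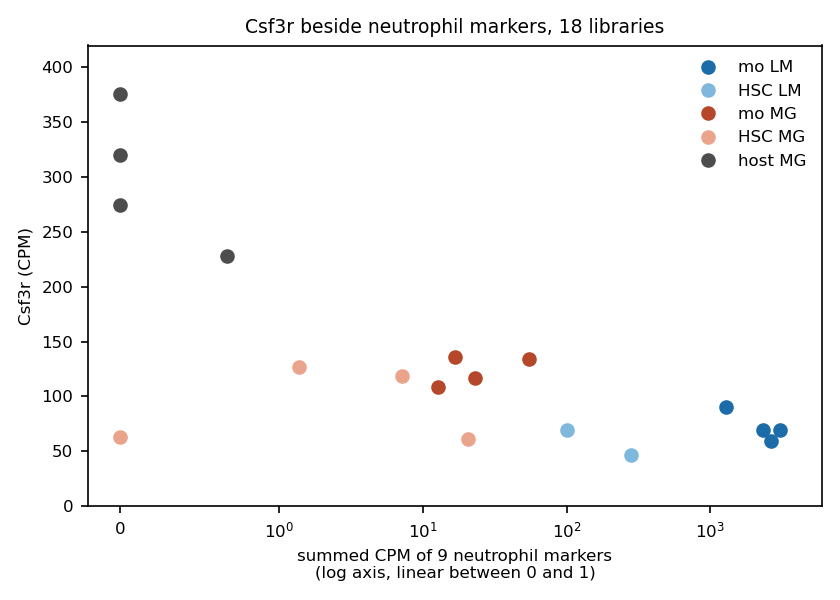
Csf3r level (vertical axis, CPM) against the summed level of 9 neutrophil markers (horizontal axis, CPM, logarithmic above 1 and linear between 0 and 1) in the 18 libraries. Colours give the group. Host microglia lie at 227.7 to 376.1 CPM of Csf3r with at most 0.67 CPM of the markers, and mo LM at 59.3 to 90.64 CPM with 1280 CPM or more.

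Genes acting next to these receptors were read from the same tests in 4 lists. Of 24 tested genes of CSF1R-proximal signalling, 3 were higher and 6 lower in mo MG, and 2 higher and 10 lower in HSC MG, against host MG. Of all tested genes 15.1% were called higher and 15.1% lower in mo MG, and 16.3% higher and 13.1% lower in HSC MG. The list's median log2 fold change was -0.20 in mo MG and -0.35 in HSC MG, beside 0.01 and 0.00 over all genes. Lyn, a Src-family kinase, averaged 236.9 CPM in mo MG and 195.4 CPM in HSC MG, against 356.4 CPM in host MG, with changes of -0.59 (adjusted p = 0.00066, edgeR) and -0.85 (adjusted p = 1.81e-05). Akt1, a kinase downstream of PI3K, changed by -0.45 in mo MG (adjusted p = 0.0046) and -0.54 in HSC MG (adjusted p = 0.00394). Inpp5d, the lipid phosphatase SHIP1 that opposes PI3K, was lower in both, with changes of -0.46 in mo MG (adjusted p = 0.0149) and -0.80 in HSC MG (adjusted p = 0.000119). Src was also lower in both, with -0.58 (adjusted p = 0.0278) and -1.21 (adjusted p = 0.0018). In mo MG the Inpp5d call was lost without host MG replicate 2 or 3, at adjusted p up to 0.0672. The Src call there was lost in DESeq2 (adjusted p = 0.0642) and without host MG replicate 2 or 3 or mo MG replicate 1, 2 or 3, at adjusted p up to 0.211. Gab2, an adaptor that recruits PI3K, averaged 53.57 CPM in mo MG and 41.69 CPM in HSC MG, against 29.39 CPM in host MG, and was higher in both, by 0.88 (adjusted p = 0.000204) and 0.67 (adjusted p = 0.0235). The HSC MG call of Gab2 was lost when scaled by library totals alone (0.38, adjusted p = 0.246), with the replicate block (adjusted p = 0.0527), and without host MG replicate 3 or HSC MG replicate 1 or 2, at adjusted p up to 0.231. Dok2, an adaptor that restrains Ras signalling, averaged 6.553 CPM in mo MG and 5.789 CPM in HSC MG, against 1.123 CPM in host MG, and was higher in both, by 2.15 (adjusted p = 0.000846) and 2.24 (adjusted p = 0.00763), the second call being lost without HSC MG replicate 2 (2.05, adjusted p = 0.056).

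Between the compartments, 6 genes of the same list were higher and 5 lower in mo LM against mo MG, and 2 higher and 2 lower in HSC LM against HSC MG. Of all tested genes 19% were called higher and 16.3% lower in the first comparison, and 5.75% higher and 3.97% lower in the second. The list's median log2 fold change was 0.06 and -0.05, beside -0.04 and -0.06 over all genes. Dok2 averaged 53.28 CPM in mo LM and 45.02 CPM in HSC LM, against 6.553 CPM in mo MG and 5.789 CPM in HSC MG, with changes of 3.03 (adjusted p = 2.35e-10) and 2.80 (adjusted p = 0.00022). The Src-family kinase Fgr, at 56.36 CPM in mo LM and 22.3 CPM in HSC LM, was higher in both, by 2.84 (adjusted p = 5.42e-10) and 2.29 (adjusted p = 0.0152). Fyn, of the same family, was higher in mo LM than in mo MG by 2.66 (adjusted p = 1.42e-09), while Src was lower (-1.17, adjusted p = 0.000468). The change of Fyn in HSC LM against HSC MG was 1.42 (adjusted p = 0.105), and that of Src was -1.10 (adjusted p = 0.329). Lyn was lower in both, with changes of -0.50 in mo LM (adjusted p = 0.00372) and -0.81 in HSC LM (adjusted p = 0.0122). Inpp5d was also lower in both, with -0.54 (adjusted p = 0.00439) and -0.89 (adjusted p = 0.00699).

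The JAK-STAT list holds genes that GM-CSF and G-CSF receptors signal through, together with feedback inhibitors, STAT5-induced genes and survival factors. Of its 14 tested genes, 8 were higher and 0 lower in mo LM against mo MG, where 19% of all tested genes were called higher and 16.3% lower. In HSC LM against HSC MG 4 were higher and 0 lower, where 5.75% of genes were called higher and 3.97% lower. The list's median log2 fold change was 0.61 in mo LM and 0.69 in HSC LM, beside -0.04 and -0.06 over all genes. Socs3, the feedback inhibitor that acts on the G-CSF receptor, averaged 659.6 CPM in mo LM and 353.9 CPM in HSC LM, against 77.2 CPM in mo MG and 94.73 CPM in HSC MG. Its changes were 3.09 (adjusted p = 4.34e-07, edgeR) and 1.91 (adjusted p = 0.00343). Pim1, a kinase gene induced by STAT5, averaged 208.9 CPM in mo LM and 132.1 CPM in HSC LM, against 32.53 CPM in mo MG and 37.03 CPM in HSC MG, with changes of 2.67 (adjusted p = 6.48e-11) and 1.74 (adjusted p = 0.00037). Mcl1, a survival factor, changed by 1.51 (adjusted p = 7.14e-10) and 1.22 (adjusted p = 2.84e-05). Cish, another STAT5-induced inhibitor, was higher in mo LM by 2.41 (adjusted p = 1.38e-06), and its change in HSC LM was 1.96 (adjusted p = 0.0806).

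Markers of other blood cells moved with these genes. In mo LM against mo MG all 8 tested neutrophil markers, all 9 monocyte markers, 7 of 8 dendritic cell markers and all 9 T and NK cell markers were called higher. Of all tested genes 19% were called higher there. In HSC LM against HSC MG the counts were 1 of 8, 3 of 9, 3 of 8 and 4 of 9, beside 5.75% of all tested genes. Summed monocyte markers ran from 741 to 1070 CPM in mo LM and 331 to 594 CPM in HSC LM, against 78.4 to 121 CPM in mo MG and 125 to 169 CPM in HSC MG, with Chil3 at 0 in HSC LM and in HSC MG. Summed T and NK cell markers ran from 951 to 1560 CPM in mo LM and 362 to 809 CPM in HSC LM, against 231 to 293 CPM in mo MG and 56.4 to 331 CPM in HSC MG, with Cd3g and Klrb1c at 0 in HSC MG. Ccl5, which led this sum, averaged 677 CPM in mo LM and 312 CPM in HSC LM, against 163 CPM in mo MG and 111 CPM in HSC MG. The part of these cells in the leptomeningeal changes of the 4 lists was not tested.

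Against host MG the JAK-STAT list moved both ways, with 2 genes higher and 2 lower in mo MG and 2 higher and 3 lower in HSC MG, 4 and 5 of 14 beside 30.2% and 29.4% of all tested genes. Pim1 averaged 32.53 CPM in mo MG and 37.03 CPM in HSC MG, against 10.91 CPM in host MG, with changes of 1.60 (adjusted p = 3.14e-05) and 2.09 (adjusted p = 5.71e-06). The HSC MG libraries spread widely, at 51.01, 64.59, 5.124 and 27.4 CPM. The shallow replicate 3, on 1 UMI, lay below the lowest host library, at 9.095 CPM. Bcl2l1, which encodes the survival protein BCL-XL, was lower in both mo MG and HSC MG, with changes of -0.86 (adjusted p = 0.00011) and -0.81 (adjusted p = 0.00235). Socs3 was lower in mo MG (-1.21, adjusted p = 0.00434), and its change in HSC MG was -0.80 (adjusted p = 0.0718). Stat5b was lower in HSC MG, at 17.26 ± 5.936 CPM, than in host MG, at 40.22 ± 3.068 CPM (SD, n = 4 each), a change of -1.11 (adjusted p = 0.000325). It was the 1 gene of the 4 lists called between mo MG and HSC MG, at 1.02 (adjusted p = 0.0171), a call that was lost without the 3 shallowest libraries (0.95) and with only both groups in the model (1.01).

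Transcription factors known to act on Csf1r or on myeloid receptor genes gave 2 higher and 1 lower of 15 tested in mo MG, and 1 higher and 3 lower in HSC MG, against host MG. That is 3 and 4 of 15 called, beside 30.2% and 29.4% of all tested genes. Maf, a factor expressed in macrophages, was higher in mo MG, at 267 CPM, than in host MG, at 152.8 CPM (0.81, adjusted p = 1.93e-05), and its change in HSC MG was 0.36 (adjusted p = 0.0738). Tfec, a macrophage factor of the MITF family, was higher in both, by 2.53 (adjusted p = 0.00104) and 2.59 (adjusted p = 0.00514), at means of 7.832 CPM in mo MG and 8.37 CPM in HSC MG, against 1.269 CPM in host MG. Irf8 and Runx1 were lower in HSC MG, with changes of -0.52 (adjusted p = 0.00831) and -0.45 (adjusted p = 0.0223), both of which were lost without the 3 shallowest libraries, at -0.33 each. Their changes in mo MG were -0.18 (adjusted p = 0.371) and -0.27 (adjusted p = 0.133). Of the factors 6 were higher and 5 lower in mo LM against mo MG, and in HSC LM against HSC MG 5 were higher and 2 lower, 11 and 7 of 15 beside 35.3% and 9.72% of all tested genes.

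Egr1, an immediate early gene, averaged 2744 CPM in mo LM and 1667 CPM in HSC LM, against 324.7 CPM in mo MG and 398.2 CPM in HSC MG, with changes of 3.08 (adjusted p = 1.07e-13) and 2.07 (adjusted p = 1.23e-07). Klf4, which takes part in monocyte differentiation, averaged 659.3 CPM in mo LM and 594.6 CPM in HSC LM, against 131.3 CPM in mo MG and 109.9 CPM in HSC MG, with changes of 2.33 (adjusted p = 2.16e-07) and 2.36 (adjusted p = 2.27e-05). Egr2 changed by 3.48 (adjusted p = 2.83e-11) and 2.93 (adjusted p = 0.000111), and Ets2 by 1.92 (adjusted p = 1.02e-09) and 2.16 (adjusted p = 4.11e-06). Irf8 was lower in both, with changes of -0.51 in mo LM (adjusted p = 0.00687) and -0.89 in HSC LM (adjusted p = 0.00383). Maf was lower in mo LM than in mo MG (-0.82, adjusted p = 1.68e-05), and its change in HSC LM was 0.28 (adjusted p = 0.446). Actinomycin D was present during preparation of all cells, and the part of the differing dissociation steps in these values was not tested.

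Of 4 genes for metalloproteases that shed proteins from the cell surface and for a partner of 1 of them, 1 was higher and 1 lower in each donor microglia group against host MG, where 30.2% (mo MG) and 29.4% (HSC MG) of all tested genes were called. Adam17, a metalloprotease that sheds CSF1R, averaged 131.3 CPM in mo MG and 108.5 CPM in HSC MG, against 182.3 CPM in host MG, with changes of -0.47 (adjusted p = 0.00366) and -0.74 (adjusted p = 0.000145). Adam9, another metalloprotease, was higher in both, by 0.80 (adjusted p = 0.000722) and 0.63 (adjusted p = 0.0264). Between the compartments, mo LM against mo MG, Adam17 was lower (-0.57, adjusted p = 0.000775), Adam10 was lower, at 50.95 CPM against 134.6 CPM (-1.39, adjusted p = 2.23e-08), and Rhbdf2, which guides Adam17 to the cell surface, was higher (0.93, adjusted p = 0.0296), 3 of 4 beside 35.3% of all tested genes. In HSC LM against HSC MG Adam10 (-1.14, adjusted p = 0.00974) and Adam17 (-0.71, adjusted p = 0.0486) were lower, 2 of 4 beside 9.72% of all tested genes.

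Between mo LM and HSC LM edgeR called 0 genes of the 4 lists, where 0.302% of all tested genes were called. An unadjusted p under 0.05 was found for 8 of 24, 2 of 14, 5 of 15 and 0 of 4, beside 1159 of all 10597 genes. DESeq2 called 0, 0, 2 and 0, beside 70 of all genes. Between mo MG and HSC MG edgeR called 0 of the signalling, transcription factor and shedding lists, where 1.89% of all tested genes were called. These lists had 4, 3 and 0 unadjusted p under 0.05, beside 1639 of all 10597 genes. DESeq2 called 1, 1 and 0, beside 552 of all genes. With only HSC LM and HSC MG in the model, edgeR called between them 205 of 6818 tested genes. Of these, 0 were in the signalling list, 1 in the JAK-STAT list, 4 among the transcription factors and 0 in the shedding list.

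The changes in HSC LM rest on 2 libraries. Without replicate 1, which leaves the shallow replicate 2, the changes against HSC MG were 0.66 for Pim1 (adjusted p = 0.544), 0.82 for Socs3 (adjusted p = 0.426), 0.72 for Mcl1 (adjusted p = 0.135) and 0.88 for Egr2 (adjusted p = 0.709). They were 2.39 for Dok2 (adjusted p = 0.167), 1.44 for Fgr (adjusted p = 0.566), 1.74 for Ets2 (adjusted p = 0.0543) and 2.03 for Il3ra (adjusted p = 0.0724), none of them called. Inpp5d, Adam10 and Adam17 also lost their calls there, while Egr1, Klf4 and Irf8 were still called. Without replicate 2 the calls of Lyn (-0.58, adjusted p = 0.142), Irf8 (-0.76, adjusted p = 0.0615), Inpp5d and Adam17 were lost, and those of the other genes named for HSC LM held.

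**Figure D5:**
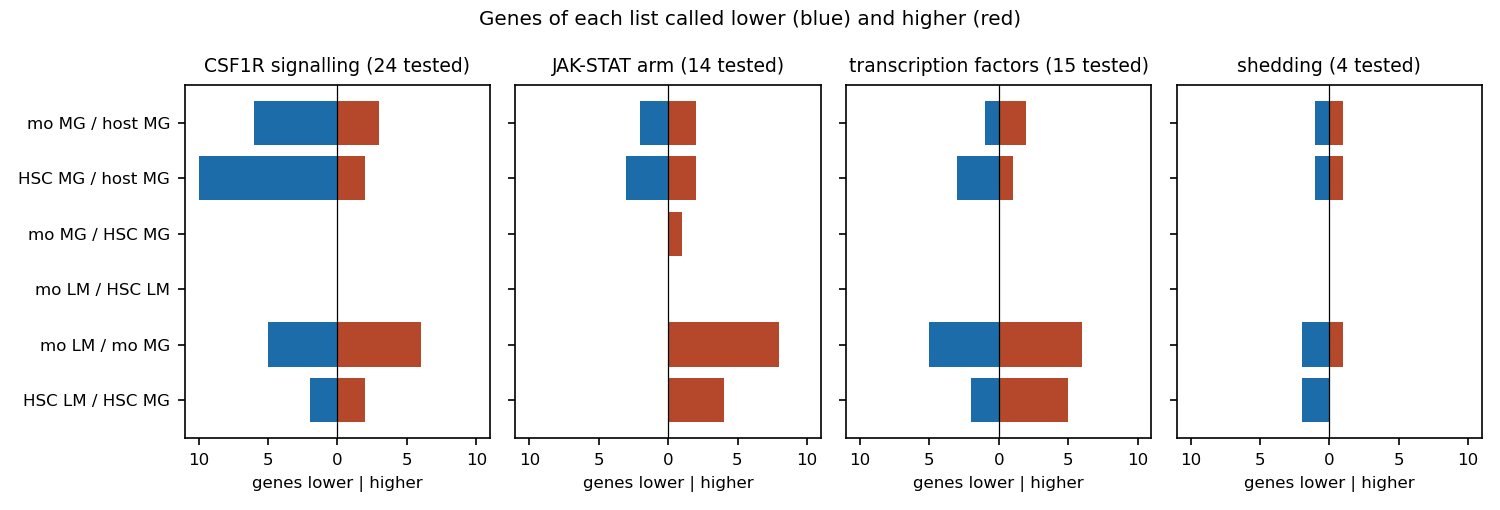
Number of genes called lower (blue, to the left) and higher (red, to the right) in each of 4 lists, for 6 comparisons of the first-named group over the second. In the JAK-STAT list 8 and 4 genes were higher and 0 lower in the leptomeningeal groups over microglia of the same origin, where 19% and 5.75% of all tested genes were called higher. In the CSF1R signalling list 3 and 2 were higher and 6 and 10 lower in mo MG and HSC MG over host MG, where 15.1% and 13.1% of all tested genes were called lower.

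Genes whose levels varied most like each receptor gene across the 18 libraries were ranked by Pearson's r of log2 CPM among 6204 genes, as a description, since libraries of 1 group share their cell type and depth. For Csf3r they were Sall3 (r = 0.967), Tspan14 (0.965) and Gcnt1 (0.962), and for Csf1r Man2b1 (0.929), Rgs2 (0.923) and Tmem104 (0.913). For Csf2ra they were Gramd1b (0.922), Rb1 (0.907) and Slc26a11 (0.903). Each of these was at 0.90 or above without the 3 shallowest libraries. The leading genes for Csf2rb, Sbf2 (0.937), Mllt6 (0.904) and Ptgr2 (0.902), dropped to 0.593, 0.259 and 0.469 without those libraries. For Csf2rb2, Mib2 (0.98) was at 0.854 without them, and Atg16l1 (0.971) and Sppl2b (0.961) at 0.589 and 0.567. Csf1, with a mean under 20 CPM, was not ranked.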

How the data were processed

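Bulk MARS-seq libraries of sorted brain macrophages were measured as UMI counts per gene, which the authors deposited as whole numbers in 1 table; the scaled columns beside them were not used. Per the submitters' processing notes the build was mm10; the aligner, counting program and strand setting were not given in the sources used here. Of the unscaled columns, 2 matched no described sample and were left out. Samples were grouped by their titles.

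In R 4.3.3 with edgeR 4.0.16 and limma 3.58.1, genes passing filterByExpr were scaled by TMM and fitted over all 18 libraries in 1 robust quasi-likelihood model with a coefficient per group and no covariate. The model's common dispersion corresponded to a coefficient of variation of 0.161 between replicates. The 7 comparisons were tested two-sided with Benjamini-Hochberg adjustment over all 10597 genes at a threshold of 0.05. Standard errors were taken as the log2 fold change over the square root of F, and 95% intervals from them. Log2 CPM for correlations used a prior count of 2. The share of Csf2rb2 was tested by exact permutation (scipy 1.17.1), and floors take 3 counts; intervals and floors cover counting error only. The test was checked on simulated counts with 200 changed genes.

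The alternatives were DESeq2 1.42.0 (its size factors in edgeR, and its Wald test), library totals without TMM, no filter, only the groups compared in the model, the replicate number as a block, no shallow libraries, and leaving out each library in turn. The same alternatives for the lists, and the share without the shallow libraries, were added after seeing the data.

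The text names the 6 genes, from each list up to 4 called genes with the smallest p in each comparison, the 3 genes most correlated with each receptor gene, 7 label markers and the summed markers of other cells. Some genes that this rule names are not reported here. The 6 genes, the lists and the rule were chosen with earlier results of these data known. Gene positions come from GENCODE vM21 on GRCm38, promoters from RefSeq on GRCm38.p6; the RefSeq starts of Csf2ra and Csf3r lie inside the GENCODE genes.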

Additional observations from a re-analysis of the deposited data

Results flagged for a closer look

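In groups of 4 libraries, 48 groups of values were looked at for a library far from the others, and 4 were found; chance gives about 1 in 20. Csf1r stood at 4398 CPM in 1 HSC MG library, replicate 1, beside 4135 to 4164 CPM in the other HSC MG libraries. Il3ra stood at 39.14 CPM in the shallow HSC MG replicate 4, where it rests on 10 UMIs, beside 15.12 to 17 CPM in the others. Socs3 stood at 138.6 CPM in the lowest host MG library, beside 187.8 to 194.7 CPM in the others. Dok2 had 0 UMIs in the shallow HSC MG replicate 3, beside 7.085 to 8.245 CPM in the others, which rest on 5, 6 and 2 UMIs. A count of 3 in replicate 3 corresponds to 15.37 CPM, so its depth does not set it apart from the others.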

How the results depend on the processing

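The calls of Csf2ra, Csf2rb2, Csf3r and Csf1 in mo MG against host MG, of Csf3r and Csf1 in HSC MG against host MG and of Csf3r and Csf1 in mo LM against mo MG kept their direction and passed the threshold in every alternative run. Scaled by library totals without TMM, which put the median log2 fold change of all genes at -0.28 in HSC MG against host MG, -0.34 in mo LM against mo MG, 0.27 in mo MG against HSC MG and -0.11 in the interaction, values moved as follows; under TMM these medians were 0.00, -0.04, 0.02 and 0.10. In HSC MG against host MG Csf1r was called at -0.54 (adjusted p = 0.00369), Csf2rb at -0.63 (0.0117), and Csf2ra was lost at 0.42 (0.162), with 31.9% of called genes higher in place of 55.3%. In mo LM against mo MG 4 of the 6 genes were called, with Csf1r at -0.60 (0.00111) and Csf2ra at -0.69 (0.0156). Of all 10597 genes 4652 were called there, and 28.3% of called genes were higher in place of 53.9%. In mo MG against HSC MG Csf1r was 0.31 and Csf2rb2 0.21, with 124 genes called and 46.8% of them higher in place of 6.5%. Csf2rb in mo MG against host MG was -0.01, and in the interaction Csf1r was -0.10, Csf3r -0.01 and 1 gene was called. Without a filter Csf1r was 0.03 in mo MG against HSC MG.

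Without the 3 shallow libraries Csf2rb2 in HSC MG against host MG was -0.54, no longer called. In mo LM against mo MG 4 of the 6 were called, with Csf1r at -0.29 and Csf2ra at -0.40, where 4779 of 10902 tested genes were called. In HSC LM against HSC MG 1 was called, Csf3r at -1.39, where 1460 of 10902 genes were called, and Csf2rb2 was 0.13. In mo MG against HSC MG 50 genes were called and Csf2ra was -0.03. In mo LM against HSC LM 72 genes were called, 40.3% of them higher in place of 53.1%. In mo MG against host MG 6 in place of 3 of the transcription factors were called without these libraries. Of all tested genes 4181 of 10902 were called there, in place of 3201 of 10597. With only the groups compared in the model, the genes called numbered 2068 in HSC MG against host MG, 20 in mo MG against HSC MG, 16 in mo LM against HSC LM, 205 in HSC LM against HSC MG and 1 in the interaction, and Csf2ra was called in mo LM against mo MG at -0.38. The DESeq2 Wald test called 552 genes in mo MG against HSC MG, 70 in mo LM against HSC LM and 49 in the interaction. In HSC LM against HSC MG it called 1 of the 6 (Csf1r, -0.42) beside 957 of all 10597 genes. In mo LM against mo MG it called Csf1r at -0.29. The cause of these changes was not tested.

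Same-numbered libraries of different groups deviated from their group means with correlations of -0.08 to 0.06, save 0.323 and -0.321 between HSC MG and HSC LM. The 2 HSC LM libraries deviate from their mean in opposite directions by construction. Replicates 1, 3 and 4 of mo MG were closest to the same number in mo LM, at 0.029, 0.0575 and 0.0521, and replicate 2 to replicate 1. As these correlations were small, the numbers were not taken as pairs. With the replicate block Csf2ra was called in mo LM against mo MG at -0.40 (0.0482) and was 0.11 in mo LM against HSC LM.

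Leaving out each of the 18 libraries in turn, the genes called ran from 31 to 555 in mo MG against HSC MG, 12 to 90 in mo LM against HSC LM, 366 to 1242 in HSC LM against HSC MG and 0 to 40 in the interaction. The library with the most effect was HSC MG replicate 4 (31) or 1 (555) in the first, HSC LM replicate 2 (12) or 1 (90) in the second, HSC LM replicate 1 (366) in the third, and HSC LM replicate 2 (0) or 1 (40) in the last. Csf2rb2 in HSC MG against host MG ranged from -0.98 to -0.54, losing its call without host MG replicate 2, HSC MG replicate 1 or HSC MG replicate 4. Csf2ra in mo LM against mo MG ranged from -0.46 to -0.33, gaining a call without HSC MG replicate 3 or 4, mo LM replicate 1 or HSC LM replicate 1. Csf3r in HSC LM against HSC MG ranged from -1.12 to -0.64, and the 6 genes gave 0 or 1 call there, the 1 being Csf3r without HSC MG replicate 3, HSC MG replicate 4 or mo LM replicate 1.

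Directions turned only for changes that were not called. In mo MG against host MG Csf2rb ranged from -0.01 to 0.06. In mo MG against HSC MG Csf1r ranged from -0.01 to 0.02 and Csf2rb2 from -0.19 to 0.23. In mo LM against HSC LM Csf2ra ranged from -0.34 to 0.49, Csf2rb from -0.12 to 0.11 and Csf2rb2 from -0.47 to 8.53. In mo LM against mo MG Csf2rb ranged from -0.07 to 0.09, and in HSC LM against HSC MG Csf2ra ranged from -0.59 to 0.23 and Csf2rb2 from -8.69 to 0.31. In the interaction Csf2ra ranged from -0.63 to 0.19, Csf2rb2 from -0.45 to 8.54 and Csf3r from -0.14 to 0.34. The values of 8.53, -8.69 and 8.54 arise where HSC LM is left with a library of 0 Csf2rb2 UMIs and are no bounds. Depth limits Csf1 and Csf2rb2 most, at 1 to 9 UMIs and 0 to 40 UMIs per HSC library.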
